A study of Mus musculus with 36 samples.

Results

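Exposure of mice to a mixture of acetophenone and decanal was compared with exposure to no odor, across all genes of RNA bound to ribosomes that carried phosphorylated S6 (pS6) in the olfactory epithelium. The comparison used 3 libraries of the mixture and 3 libraries of the no-odor controls of the same experiment, 6 of the 36 libraries of the series, and every gene in their count table: 57010 gene identifiers, of which 19514 had enough counts to be tested. The animals of all groups used here were males of the C57BL/6J strain, wild type and 8 weeks of age, housed singly and habituated without odor for 4 h. Mixture mice then spent 90 min with 10 µL of acetophenone and decanal (1:1) on filter paper. Mice of the acetophenone group and of the decanal group had 10 µL of the undiluted single odorant, and control mice had empty paper. The mixture therefore held less of each odorant than the single-odor groups received, and amounts were not matched in any comparison between them. The labels put these 12 libraries in a single batch and call the 3 libraries of a group biological replicates, and p-values measure the spread between such libraries.

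Acetophenone is an aromatic ketone and decanal an aliphatic aldehyde. Each mature olfactory sensory neuron expresses a single odorant receptor gene out of a very large family, and each odorant activates the neurons of a particular subset of receptors. Firing is followed by phosphorylation of ribosomal protein S6, so an antibody to pS6 pulls down ribosomes, with the RNA they carry, preferentially from neurons that were active. A receptor whose neurons respond to the odor then gains reads relative to other receptors. Class I receptors form the ancestral, fish-like branch of the family and class II receptors the larger branch found in land vertebrates.

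The mixture libraries held 21.51 to 21.77 M counts and the control libraries 21.75 to 23.72 M. Olfactory receptor genes held 88294, 99724 and 102132 of these counts in the mixture libraries and 92933, 73961 and 81822 in the control libraries. Omp, the marker protein of mature olfactory sensory neurons, stood at 8829 to 10751 CPM (counts divided by the TMM-scaled library size in M) in the mixture libraries and 4014 to 4841 CPM in the control libraries, so the labelled tissue carried its defining marker throughout. The summed CPM of 17 red blood cell genes was 31177 to 37819 with the mixture, against 15874 to 21396 in controls, and the share of counts on 13 genes of the mitochondrial genome was 0.164%, 0.474% and 0.294% with the mixture, against 0.0673%, 0.0505% and 0.0553% in controls. Both measures were higher in each mixture library than in each control library, and their part in the results below was not tested. The libraries hold pS6-bound RNA of whole tissue. In them, changes in the number of cells of a type, in RNA per cell and in the share pulled down with pS6 cannot be told apart.

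Receptor genes that passed the test changed more than other genes that passed it. Of 1107 olfactory receptor genes listed, 868 had enough counts to be tested and 239 did not. With the mixture, 115 of the 868 rose (13.2%), 56 fell (6.45%) and 697 did not pass the test at an adjusted p under 0.05 (edgeR quasi-likelihood test, Benjamini-Hochberg over all genes tested). Over all 19514 genes tested, 4168 passed (21.4%), of which 2136 rose (10.9%) and 2032 fell (10.4%), so receptor genes passed the test about as often as other genes did. The sizes differed. The 115 receptor genes that rose had a median log2 change of 3.07, against 0.60 for the 2014 other genes that rose. A log2 change over 3 was seen in 58 receptor genes and 23 others among those that rose, although other genes tested numbered 18603. The 56 receptor genes that fell had a median log2 change of -1.17, against -0.57 for the 1973 other genes that fell. These medians cover called genes only. The smallest called change of a receptor gene was 0.58 among those that rose and -0.56 among those that fell. Both lie close to the medians of the other genes. Levels of receptor and other genes were not matched, and how far the call itself set the difference in size was not tested. The median over all tested receptor genes was -0.08, and over all genes tested it was 0.00. The 3 mixture libraries did not overlap the 3 control libraries for 113 of the 115 and for 53 of the 56, which the calls themselves nearly require. Over all genes tested, 38.8% had no such overlap. When libraries were scaled to the median receptor gene in place of TMM scaling, 110 of the 115 and 45 of the 56 kept their call. The calls over all genes then went to 1195 higher and 701 lower. Leaving out the second control library left 2695 calls over all genes in place of 4168.

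**Figure D1:**
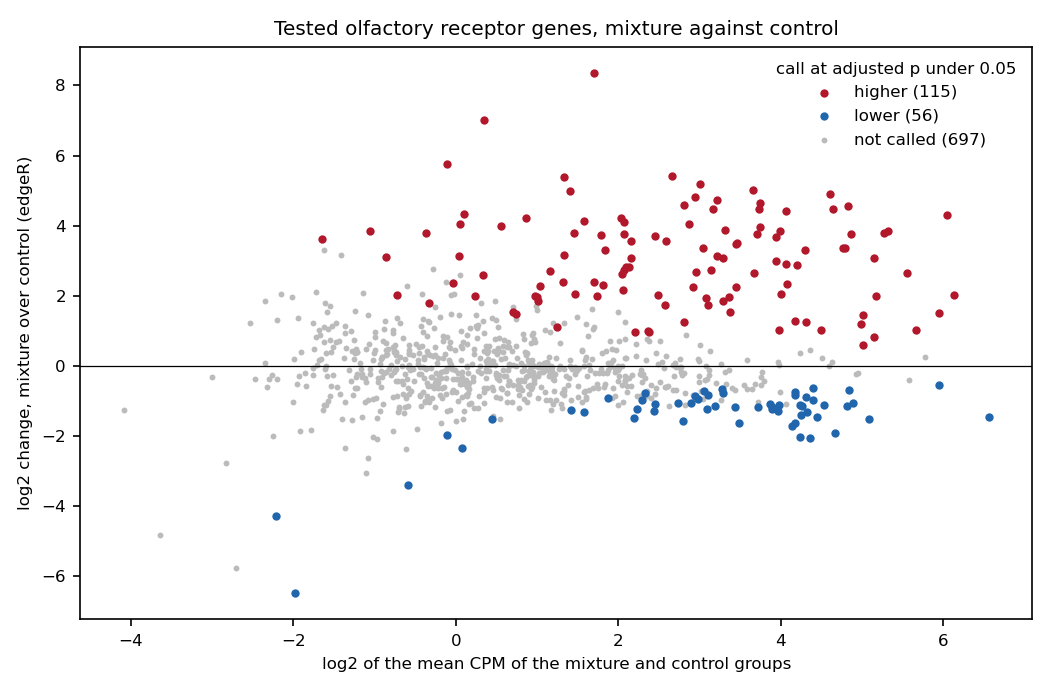
Each point is 1 of the 868 tested olfactory receptor genes: the x axis is the log2 of its mean CPM over mixture and control groups and the y axis its log2 change, mixture over control. The 115 genes called higher lie mostly far above 0 and the 56 called lower lie mostly closer to it, at medians of 3.07 and -1.17.

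Most receptor genes that rose could be placed on the side of an odorant by the test of acetophenone against decanal in the same fit of 12 libraries (5749 of 19514 genes called in it, 29.5%). Of the 115 that rose, 73 were higher with acetophenone than with decanal, 39 were higher with decanal, and 3, Olfr394, Olfr1358 and Olfr774, did not pass that test and were named after their values were seen. Neither side was tested against the other. The decanal side had a median level of 20.0 CPM with the mixture and 3.45 CPM in controls, while the acetophenone side had a median of 8.21 CPM with the mixture and 1.07 CPM in controls. The median log2 change was 3.12 on the decanal side and 2.88 on the acetophenone side.

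The receptor with the smallest p was Olfr332 (ENSMUSG00000050813), on the decanal side. It stood at 110, 137 and 128 CPM with the mixture, 4.96, 5.07 and 6.32 CPM with acetophenone, 216, 248 and 222 CPM with decanal and 7.04, 5.42 and 6.43 CPM in controls. Every mixture library was far above every control library, and below every decanal library. The log2 change over controls was 4.31 (SE 0.138, adjusted p = 5.31e-10, edgeR), against acetophenone it was 4.52 (adjusted p = 3.38e-10), and against decanal it was -0.87 (adjusted p = 0.00242). Olfr55 (ENSMUSG00000094891) had 63.6, 51.9 and 47.3 CPM with the mixture, 111, 100 and 109 CPM with decanal and 4.57, 3.84 and 3.52 CPM in controls. Its mixture libraries lay between the decanal and control libraries, with a log2 change of 3.77 over controls (SE 0.166, adjusted p = 1.15e-08) and of -0.98 against decanal (adjusted p = 0.00412). Olfr55 shares near-identical sequence with Olfr1564 and Olfr239, so its reads could not be fully separated from theirs. Olfr509, which shares such sequence with Olfr107, had 22.8, 25.4 and 33.3 CPM with the mixture, 62.0, 68.5 and 56.6 CPM with decanal and 3.26, 4.06 and 3.04 CPM in controls. It also lay between decanal and control in every library, with log2 changes of 2.98 over controls (SE 0.177, adjusted p = 3.26e-07) and -1.20 against decanal (adjusted p = 0.00169).

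Other receptors of the decanal side rose as much without a call against decanal itself. Olfr1383 (ENSMUSG00000107417) shares near-identical sequence with the pseudogene-named Olfr1372-ps1. Olfr1383 had 47.6, 55.4 and 40.7 CPM with the mixture, 62.0, 84.3 and 66.5 CPM with decanal and 1.59, 2.29 and 2.61 CPM in controls. Its log2 change was 4.47 over controls (SE 0.198, adjusted p = 1.15e-08) and -0.57 against decanal (adjusted p = 0.514). Olfr716 (ENSMUSG00000073896) had 61.1, 66.6 and 95.6 CPM with the mixture, 1.85, 1.89 and 2.28 CPM with acetophenone, 121, 159 and 134 CPM with decanal and 4.85, 4.14 and 6.65 CPM in controls. The acetophenone libraries were the lowest of the 12 for this gene, and the log2 change of mixture over control was 3.84 (SE 0.203, adjusted p = 8.16e-08). Olfr1419 had 31.4, 28.2 and 36.0 CPM with the mixture, against 0.954, 1.90 and 1.61 CPM in controls (log2 change 4.43, SE 0.230, adjusted p = 7.62e-08). Olfr117, which shares sequence with Olfr130, was the most spread of these, at 36.3, 73.0 and 53.8 CPM with the mixture and 1.43, 1.90 and 3.65 CPM in controls (log2 change 4.55, SE 0.314, adjusted p = 1.54e-06). The groups did not overlap for any of these 4 genes.

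Other receptors of the decanal side had high CPM with the mixture and a smaller log2 change. Olfr455 had 134, 100 and 102 CPM with the mixture and 39.3, 21.1 and 22.5 CPM in controls (log2 change 2.02, SE 0.199, adjusted p = 3.87e-05). Olfr1349 had 91.4, 89.8 and 90.9 CPM with the mixture and 34.4, 26.3 and 35.8 CPM in controls (log2 change 1.5, SE 0.185, adjusted p = 0.000155). Olfr1420 had 77.3, 77.0 and 88.6 CPM with the mixture and 13.6, 9.57 and 16 CPM in controls (log2 change 2.63, SE 0.212, adjusted p = 5.28e-06). The groups did not overlap for any of the 3. Per kb of the longest annotated transcript, mean levels with the mixture were 45.4 CPM for Olfr1368, 36.6 for Olfr332, 27.7 for Olfr455 and 27.0 for Olfr1420, against 5.36, 1.84, 6.81 and 4.35 CPM per kb in controls.

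Among receptors of the acetophenone side, the smallest p was that of Olfr1026 (ENSMUSG00000042863). It had 27.6, 16.6 and 32.9 CPM with the mixture, 46.5, 31.0 and 30.9 CPM with acetophenone, 2.56, 1.69 and 1.63 CPM with decanal and 0.795, 1.06 and 1.22 CPM in controls. Mixture and acetophenone libraries overlapped, and both stood clear of the decanal and control libraries (log2 change 4.65 over controls, SE 0.309, adjusted p = 1.3e-06, and 3.71 against decanal, adjusted p = 4.22e-05). Olfr1047 had 18.7, 9.78 and 16.1 CPM with the mixture, 19.8, 12.4 and 9.95 CPM with acetophenone, 0.102, 0.307 and 0.542 CPM with decanal and 0.358, 0.397 and 0.825 CPM in controls. Here too the mixture and acetophenone overlapped (log2 change 0.08 between them), with a log2 change of 4.81 over controls (SE 0.441, adjusted p = 1.89e-05).

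In Olfr736 and Olfr913 the mixture stood below acetophenone. Olfr736 (ENSMUSG00000047716) had 17.6, 17.4 and 10.1 CPM with the mixture, 66.4, 64.9 and 53.1 CPM with acetophenone, 0.767, 0.920 and 0.443 CPM with decanal and 1.35, 1.59 and 1.43 CPM in controls. Each mixture library was below each acetophenone library and above each control library, with log2 changes of -2.03 against acetophenone (adjusted p = 2.47e-05) and 3.36 over controls (SE 0.242, adjusted p = 2.12e-06). Olfr913 had 11.1, 13.2 and 15.9 CPM with the mixture, 29.6, 29.3 and 27.1 CPM with acetophenone and 1.91, 2.65 and 1.78 CPM in controls. The same order held in its libraries, with log2 changes of -1.1 against acetophenone (adjusted p = 0.000811) and 2.67 over controls (SE 0.208, adjusted p = 4.3e-06). Olfr745 was less even, at 36.4, 14.0 and 35.2 CPM with the mixture, 32.9, 30.8 and 31.0 CPM with acetophenone and 2.50, 2.73 and 1.48 CPM in controls (log2 change 3.67 over controls, SE 0.327, adjusted p = 1.48e-05).

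**Figure D2:**
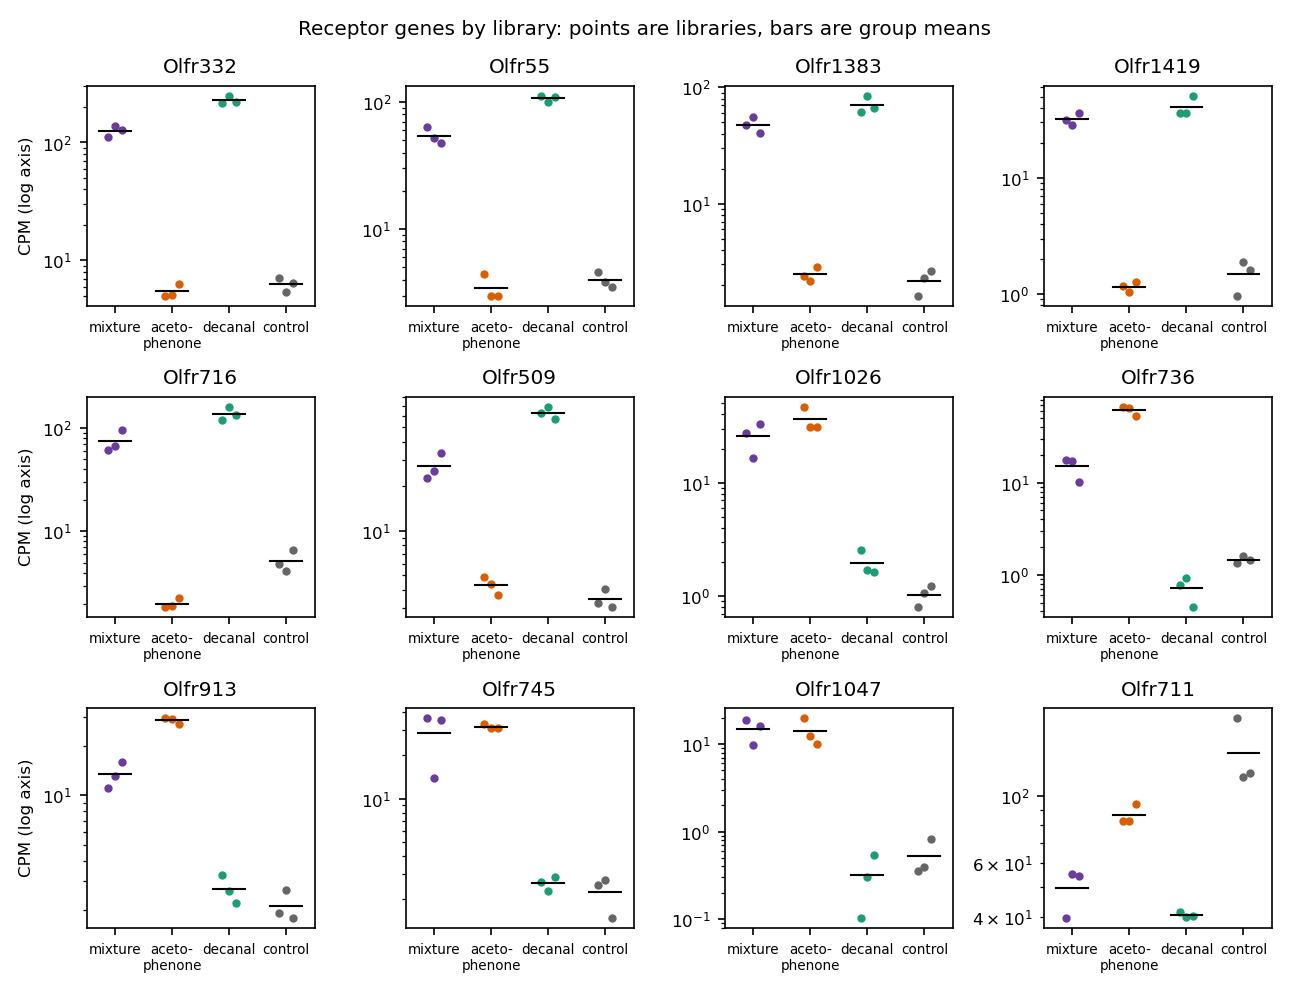
Panels show 12 receptor genes in CPM on a log axis for the mixture, acetophenone, decanal and control groups; points are the 3 libraries of a group and bars the group means. Olfr332 at 110 to 137 CPM with the mixture follows decanal, Olfr1026 at 16.6 to 32.9 CPM follows acetophenone, and Olfr711 is lower with the mixture than in controls.

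Of 5 receptors listed from earlier work as responding to acetophenone, 4 had enough counts to be tested. Those 4 rose and are on the acetophenone side, and Olfr151 was not tested. Olfr983 had 15.8, 18.6 and 41.3 CPM with the mixture and 1.51, 1.63 and 1.74 CPM in controls (log2 change 3.95, SE 0.397, adjusted p = 4.39e-05). Olfr923 had 17.6, 22.6 and 36.3 CPM with the mixture and 0.954, 1.01 and 1.43 CPM in controls (log2 change 4.49, SE 0.487, adjusted p = 7.4e-05). Olfr145 had 19.6, 14.6 and 38.7 CPM with the mixture and 1.55, 2.29 and 1.52 CPM in controls (log2 change 3.76, SE 0.454, adjusted p = 0.000138). In these 3 genes the third mixture library was the highest, and no mixture library reached down to a control. Olfr160, known as M72, had 12.5, 3.58 and 7.37 CPM with the mixture and 0.874, 0.573 and 0.261 CPM in controls (log2 change 3.75, SE 0.458, adjusted p = 0.000149), and shares near-identical sequence with Olfr151. The median log2 change of the 4 was 3.86, and each also passed the test against decanal, with none called against acetophenone.

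The mixture stood below the matching single odorant for most receptors that rose. On the acetophenone side, 66 of 73 had a lower mean CPM with the mixture than with acetophenone, with a median ratio of 0.625 (interquartile range 0.447 to 0.726), and 20 were called lower. On the decanal side, 37 of 39 were lower than with decanal, with a median ratio of 0.623 (interquartile range 0.533 to 0.738), and 4 were called lower. Against the other odorant, 47 of the 73 were called higher than with decanal, and 36 of the 39 were called higher than with acetophenone. These ratios are descriptions, because the libraries of the single odorant also decided which side a gene was on, and the mixture libraries enter every comparison. Each odorant made up only part of the mixture's 10 µL, so the ratios compare unequal amounts.

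**Figure D3:**
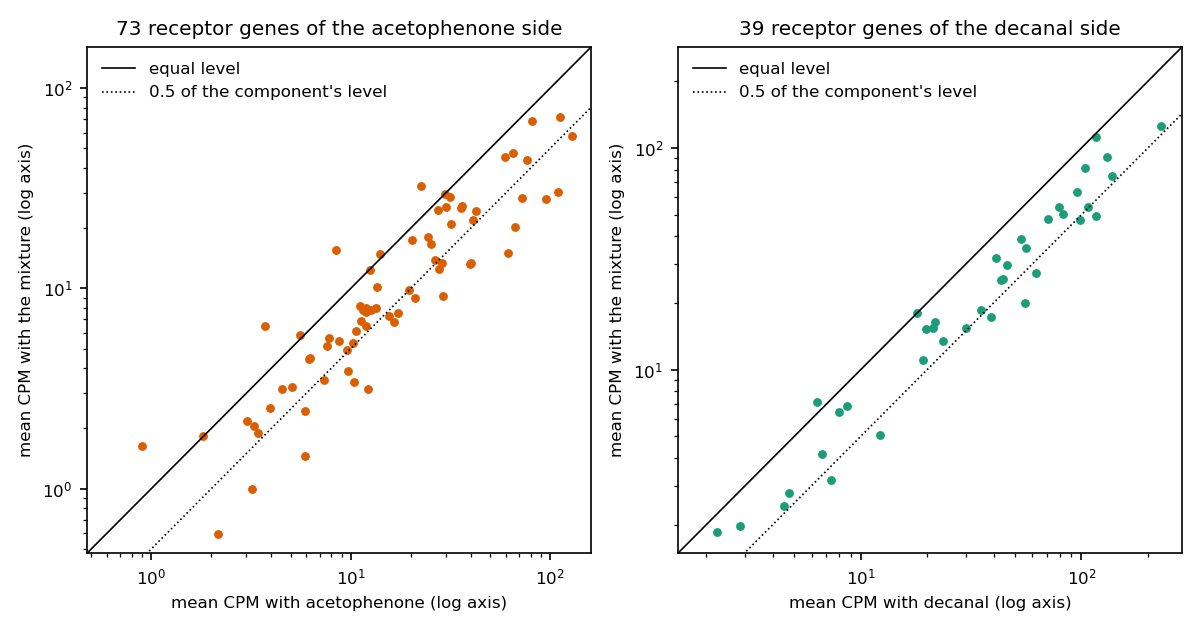
Each point is a receptor gene that rose with the mixture, 73 of the acetophenone side and 39 of the decanal side, with its mean CPM under the matching single odorant on the x axis and under the mixture on the y axis (both log axes). Most points lie below the line of equality: 66 of 73 and 37 of 39.

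Over all tested genes, the mixture differed from acetophenone in 5013 (25.7%), of which 2196 were higher (11.3%) and 2817 lower (14.4%), and from decanal in 56 (0.287%), of which 49 were higher (0.251%) and 7 lower (0.0359%). Receptor genes called against acetophenone numbered 156, 48 higher and 108 lower. With libraries scaled to the median receptor gene, 56 were higher and 57 lower. Leaving out the second acetophenone library or the third mixture library left 70 lower. Of the 56 genes called against decanal, 53 were receptors, 47 higher and 6 lower, so outside the receptors and receptor pseudogenes a single gene passed, the activity-regulated gene Arc. Arc had 14.9, 13.4 and 13.5 CPM with the mixture, 8.64, 9.15 and 8.52 CPM with decanal and 19.5, 22.0 and 20.2 CPM in controls. The mixture libraries lay between the others without overlap (log2 change 0.67 against decanal, adjusted p = 0.0344, and -0.56 against controls, adjusted p = 0.00466). A test that misses the threshold does not show that mixture and decanal were alike in the other genes.

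Some receptors were lower with the mixture than with a single odorant and had no call against controls. Olfr531 had 10.2, 10.8 and 10.7 CPM with the mixture, 39.7, 78.4 and 28.2 CPM with acetophenone and 12.7, 19.0 and 13.7 CPM in controls. It was lower with the mixture than with acetophenone (log2 change -2.20, adjusted p = 0.000189), while its log2 change of -0.51 against controls did not pass (adjusted p = 0.25). Olfr1463 had 28.3, 22.1 and 13.1 CPM with the mixture, 109, 288 and 75.1 CPM with acetophenone and 16.1, 15.7 and 17.8 CPM in controls. Its mixture libraries overlapped the controls and not the acetophenone libraries (log2 change -2.89 against acetophenone, adjusted p = 0.000221, and 0.35 against controls, adjusted p = 0.584). Towards decanal, Olfr789 had 7.99, 7.53 and 6.19 CPM with the mixture, 21.8, 16.7 and 23.5 CPM with decanal and 5.60, 7.19 and 6.17 CPM in controls (log2 change -1.51 against decanal, adjusted p = 0.00412, and 0.20 against controls, adjusted p = 0.582).

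Some receptors that rose stood next to each other when tested receptors were put in chromosome order. Of the 115, 55 (47.8%) had a next or previous gene in this order that also rose, against 140 of the 753 other tested receptors (18.6%). The order came from the GRCm38 annotation and held tested receptors and receptor pseudogenes only. Untested receptors were skipped and no limit was set on distance, so such genes need not be adjacent in the genome. This share was not tested. The longest run held Olfr742, Olfr743, Olfr744, Olfr745 and Olfr746, all of the acetophenone side, with log2 changes of 0.83, 1.03, 5.42, 3.67 and 2.36. Further runs of the acetophenone side held Olfr160, Olfr874, Olfr875 and Olfr876, and Olfr251, Olfr147, Olfr901 and Olfr904. Olfr1418, Olfr1419 and Olfr1420 formed a run of the decanal side. In the same order, Olfr30, of the acetophenone side, came between Olfr1372-ps1 and Olfr332 of the decanal side. Genes that share a near-identical stretch can share reads, whether or not they are neighbours. Of the 115, 33 had such a stretch in common with another receptor or receptor pseudogene, as did 279 of the 868 tested. Runs were listed after their members' calls were seen.

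Class II receptors made up nearly all the calls. Of 763 class II receptors tested, 111 rose and 55 fell, and of 85 class I receptors tested, 2 rose and 0 fell, with 4 lower at an unadjusted p under 0.05 (edgeR). The 2 class I genes, named after their values were seen, were Olfr653, at 11, 6.06 and 4.35 CPM with the mixture and 1.75, 1.19 and 0.521 CPM in controls (log2 change 2.61, adjusted p = 0.00227), and Olfr569, at 2.26, 1.56 and 1.75 CPM with the mixture and 0.437, 0.132 and 0.0434 CPM in controls (log2 change 3.12, adjusted p = 0.0125). Both are on the decanal side and both kept their groups apart. The trace amine-associated receptors, a separate family that detects amines, had 7 members tested, of which 0 rose and 0 fell (edgeR, 0 at an adjusted p under 0.05), with a summed level of 4.36 to 6.00 CPM with the mixture and 3.87 to 4.98 CPM in controls.

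A few receptors had almost no counts without odor. Olfr904 (ENSMUSG00000094380) had 407 counts over the 3 mixture libraries and 1 over the 3 control libraries, or 7.16, 2.80 and 9.45 CPM with the mixture, a ratio of 455 with a 95% counting interval of 81.2 to 18024. Olfr490 had 159 counts with the mixture and 1 in controls, a ratio of 178 (interval 31.5 to 7068). Olfr1474 had 116 counts with the mixture and 2 in controls, a ratio of 64.9 (interval 17.6 to 542). These intervals cover counting error only, and all 3 genes are of the acetophenone side.

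Some genes named as receptor pseudogenes also passed the test. Of 43 tested, 33 of which are annotated as protein-coding, 7 rose and 3 fell. Of all genes tested, 10.9% rose and 10.4% fell, and no difference from those shares was tested. Olfr718-ps1 had 97.8, 82.2 and 108 CPM with the mixture, 2.10, 3.05 and 2.87 CPM with acetophenone, 176, 213 and 183 CPM with decanal and 3.10, 1.63 and 2.56 CPM in controls. Its mixture libraries lay between decanal and control, with a log2 change of 5.29 over controls (SE 0.200, adjusted p = 2.61e-09) and -0.99 against decanal (adjusted p = 0.00944). Olfr1025-ps1, beside Olfr1026, had 25.2, 20.5 and 37.5 CPM with the mixture and 1.71, 1.63 and 1.95 CPM in controls (log2 change 3.97, SE 0.394, adjusted p = 4.04e-05). These were named after their values were seen.

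Receptors that fell did so by less at the median. Their log2 changes ran from -0.56 to -6.49, and 6 of the 56 fell by more than 2. Olfr711 (ENSMUSG00000045013) had 39.5, 55.4 and 54.4 CPM with the mixture, 82.9, 82.9 and 93.9 CPM with acetophenone, 41.4, 39.9 and 40.2 CPM with decanal and 181, 115 and 119 CPM in controls. The control libraries were the highest of the 12 (log2 change of mixture over control -1.48, SE 0.165, adjusted p = 8.4e-05), and the mixture was also lower than acetophenone (log2 change -0.80, adjusted p = 0.00284). Olfr169, which shares sequence with Olfr170 and Olfr171, had 7.60, 12.6 and 11.1 CPM with the mixture and 33.7, 21.1 and 28.2 CPM in controls (log2 change -1.41, SE 0.222, adjusted p = 0.000751). Olfr1342 had 10.6, 7.76 and 5.53 CPM with the mixture and 28.2, 37.2 and 33.9 CPM in controls (log2 change -2.06, SE 0.388, adjusted p = 0.00237). Neither gene had overlapping groups. Of the 56 that fell, 25 were higher with acetophenone than with decanal, 1 was higher with decanal and 30 passed neither way. All 25 had a lower mean with the mixture than under acetophenone, 20 of them by a call. These genes were chosen as low with the mixture and higher with acetophenone than with decanal. That choice favours this order, so the counts are descriptions. The 1 gene of the decanal side, Olfr17 (P2), had 3.58, 7.62 and 5.86 CPM with the mixture, 15.2, 14.8 and 19.2 CPM with decanal and 11.6, 12.1 and 13.9 CPM in controls (log2 change -1.14, SE 0.235, adjusted p = 0.00398).

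The calls nearest the threshold show where the counts end. Just inside were Olfr1360 (log2 change -1.31, adjusted p = 0.0474) and Olfr1129 (1.1, adjusted p = 0.0476), and just outside were Olfr1178 (1.62, adjusted p = 0.0510) and Olfr571 (-1.04, adjusted p = 0.0517), all by edgeR.

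Receptor genes were also summed as a percent of each library. The sum was 0.411%, 0.458% and 0.475% with the mixture and 0.392%, 0.340% and 0.367% in controls, or 0.448% ± 0.0333 against 0.366% ± 0.0259 (SD, n = 3 each, ratio 1.22). No mixture library fell below a control library, and the exact permutation test, 2-sided, gave p = 0.1, the smallest p that 3 against 3 libraries allow. Without the 5 receptors of highest CPM with the mixture, the shares were 0.366%, 0.411% and 0.425% with the mixture and 0.381%, 0.333% and 0.358% in controls, which overlap, and the difference fell to 0.0431 percentage points, against 0.0815 with them (exact permutation p = 0.2). Within the receptor counts, the 115 genes that rose held 51.6% with the mixture and 12.5% in controls, and the 56 that fell held 11.2% with the mixture and 33.2% in controls. Those shares follow from the calls and are descriptions. The number of receptor genes that held 50% of the receptor counts was 51, 57 and 61 with the mixture and 55, 73 and 71 in controls (exact permutation p = 0.3), so the groups overlapped.

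Some activity-regulated genes rose. Among 25 immediate early genes tested, which neurons switch on within minutes of firing, 7 rose, 2 fell and 16 did not pass, with a median log2 change of 0.22. Over all genes tested, 10.9% rose and 10.4% fell, and list counts here and below are to be read against those shares. Nr4a1 (ENSMUSG00000023034), a nuclear receptor transcription factor, had 218, 153 and 196 CPM with the mixture and 62.8, 32.9 and 43.0 CPM in controls (log2 change 2.03, SE 0.279, adjusted p = 0.00032). Fosb, a member of the AP-1 family, had 21.2, 9.27 and 14.9 CPM with the mixture and 3.26, 1.5 and 2.22 CPM in controls (log2 change 2.69, SE 0.373, adjusted p = 0.000338). Egr4 had 5.15, 3.03 and 6.61 CPM with the mixture and 1.15, 1.37 and 1.13 CPM in controls (log2 change 2.01, SE 0.348, adjusted p = 0.00136). In all 3 genes every mixture library was above every control library. Not all members moved this way. Fos had 43.9, 64.7 and 57.3 CPM with the mixture and 29.0, 39.5 and 45.5 CPM in controls, with overlapping groups (log2 change 0.54, adjusted p = 0.0621), and Egr1 had 55.4, 70.6 and 64.3 CPM with the mixture and 62.8, 72.2 and 81.8 CPM in controls (log2 change -0.19, adjusted p = 0.487). The 2 that fell were Arc, given above, and Jun (log2 change -0.29), whose call was lost without the third mixture library (log2 change -0.26). With libraries scaled to the median receptor gene neither was called, at log2 changes of -0.49 for Arc and -0.23 for Jun.

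Of 17 genes known to depend on the activity of olfactory sensory neurons, 8 rose, 1 fell and 8 did not pass, with a median log2 change of 0.48. The shares over all tested genes were 10.9% higher and 10.4% lower. Cartpt (ENSMUSG00000021647), which encodes the neuropeptide precursor CART, had 228, 172 and 215 CPM with the mixture, 96.9, 122 and 86.3 CPM with acetophenone, 216, 215 and 178 CPM with decanal and 51.3, 52.3 and 55.0 CPM in controls. Mixture and decanal overlapped and both were above acetophenone, which was above the controls (log2 change of mixture over control 1.96, SE 0.140, adjusted p = 2.12e-06). Rasl11a (ENSMUSG00000029641), a small Ras-like GTPase, had 37.8, 37.7 and 36.5 CPM with the mixture, 22.0, 21.1 and 20.4 CPM with acetophenone, 54.1, 49.6 and 47.0 CPM with decanal and 13.2, 15.5 and 12.8 CPM in controls. The 4 groups did not overlap at all (log2 change of mixture over control 1.43, SE 0.105, adjusted p = 2.46e-06). Kirrel2 and Sema7a, which take part in sorting sensory axons by their activity, rose by log2 changes of 1.48 (SE 0.259, adjusted p = 0.00149) and 1.94 (SE 0.399, adjusted p = 0.00387). S100a5, a calcium-binding protein used as an activity marker, had 2500, 1555 and 1827 CPM with the mixture and 1109, 1236 and 1158 CPM in controls, and missed the threshold (log2 change 0.75, adjusted p = 0.0528). The member that fell was Scg2, a granin of secretory vesicles, whose groups overlapped, and it lost its call without any 1 of 4 libraries.

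Promoter sequences of Cartpt, Med21, Nr4a1 and Fosb are shown because CREB, the factor that cyclic AMP signalling activates in firing neurons, binds the palindrome TGACGTCA or its core TGACG. They run from 250 bases before to 50 after the annotated start, 5′ to 3′ in the direction of the gene, from RefSeq on GRCm38.p6. Capitals mark TGACGTCA or the core on either strand (TGACG or CGTCA). TGACGTCA holds the core on both strands.
Cartpt, chr13:99900634-99900933, minus strand: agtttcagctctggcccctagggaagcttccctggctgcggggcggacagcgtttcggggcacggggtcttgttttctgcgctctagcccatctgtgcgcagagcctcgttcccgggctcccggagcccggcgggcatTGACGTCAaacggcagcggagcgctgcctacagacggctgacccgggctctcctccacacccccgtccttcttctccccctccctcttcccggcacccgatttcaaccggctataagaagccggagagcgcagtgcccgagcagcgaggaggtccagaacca
Med21, chr6:146642329-146642628, plus strand: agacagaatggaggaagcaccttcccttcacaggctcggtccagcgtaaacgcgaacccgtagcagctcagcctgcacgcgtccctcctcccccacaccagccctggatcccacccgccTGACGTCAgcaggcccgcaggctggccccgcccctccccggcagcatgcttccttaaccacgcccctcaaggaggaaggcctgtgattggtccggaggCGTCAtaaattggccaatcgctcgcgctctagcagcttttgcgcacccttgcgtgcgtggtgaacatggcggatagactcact
Nr4a1, chr15:101266596-101266895, plus strand: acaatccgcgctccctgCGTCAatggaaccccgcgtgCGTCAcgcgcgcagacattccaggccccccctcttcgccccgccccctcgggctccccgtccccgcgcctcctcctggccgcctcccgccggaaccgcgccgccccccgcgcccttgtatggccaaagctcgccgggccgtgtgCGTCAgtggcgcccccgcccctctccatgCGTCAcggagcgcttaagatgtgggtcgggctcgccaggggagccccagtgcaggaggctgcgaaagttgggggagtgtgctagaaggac
Fosb, chr7:19309996-19310295, minus strand: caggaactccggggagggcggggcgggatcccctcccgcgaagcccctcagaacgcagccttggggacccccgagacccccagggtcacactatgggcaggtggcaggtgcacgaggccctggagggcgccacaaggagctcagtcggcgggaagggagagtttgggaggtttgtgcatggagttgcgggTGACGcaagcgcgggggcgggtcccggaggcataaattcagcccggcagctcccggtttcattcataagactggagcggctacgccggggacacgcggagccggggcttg
The 4 windows were chosen after their matches were seen. TGACGTCA was found 112 bases before the start of Cartpt and 131 bases before that of Med21, whose window holds a further core. Nr4a1 holds 4 cores and Fosb 1. Among all 32851 promoter windows of this length, 588 (1.79%) held TGACGTCA and 6837 (20.8%) held the core on either strand. Of the 10 non-receptor genes with the smallest p among those that rose, 8 had a window, 2 of which held TGACGTCA and 4 the core. Of the 7 immediate early genes that rose, 6 had a window, 0 of which held TGACGTCA and 3 the core, with neither in Maff, Jund or Ier5. Of the 8 activity-dependent genes that rose, 6 had a window, 1 of which held TGACGTCA and 4 the core. Of the 10 that fell with the smallest p, 7 had a window, 0 with TGACGTCA and 2 with the core. A match describes the letters in the window and shows no binding.

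Components of odor transduction and of the mature neuron rose in part. Of 14 transduction genes tested, 7 rose and 1 fell, with a median log2 change of 0.37. The shares over all tested genes were 10.9% higher and 10.4% lower. Gng13, the G protein gamma subunit of olfactory cilia, had 797, 495 and 560 CPM with the mixture and 196, 226 and 210 CPM in controls (log2 change 1.55, SE 0.199, adjusted p = 0.000205). Omp had 10751, 8829 and 9507 CPM with the mixture and 4460, 4014 and 4841 CPM in controls (log2 change 1.13, SE 0.147, adjusted p = 0.000223). The groups did not overlap for either gene. Against acetophenone, the mixture had 1 of these 14 genes higher and 8 lower. Without the second control library, 4 of the 14 rose, and 3 rose when libraries were scaled to the median receptor gene. Of 18 genes that end the response, such as phosphodiesterases, 6 rose and 0 fell (median log2 change 0.21). Cabp4, a calcium-binding protein, had 20.5, 23.5 and 25.4 CPM with the mixture and 12, 9.08 and 11.8 CPM in controls, without overlap (log2 change 1.08, SE 0.161, adjusted p = 0.000531).

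Of 10 mature sensory neuron markers, 5 rose and 0 fell, with a median of 0.41. Their summed level was 15662 to 17911 CPM with the mixture, against 8529 to 10036 CPM in controls. Without the second control library 3 rose. Omp, Cnga2 and Gnal were also counted with the transduction genes that rose, and Stoml3 with those that end the response. Of 12 immature neuron markers, 0 rose and 4 fell, with a median of -0.21. Their sums were 5361 to 6040 CPM with the mixture, against 6332 to 6664 CPM in controls. Dpysl3 and Tubb3 lost their calls when libraries were scaled to the median receptor gene. Tubb3 also lost its call when any mixture or control library was left out. Dpysl5, a collapsin response mediator of growing axons, had 94.1, 102 and 83.4 CPM with the mixture and 176, 174 and 154 CPM in controls (log2 change -0.85, SE 0.102, adjusted p = 0.000131). Of 16 markers of basal and progenitor cells, 1 rose and 8 fell, with a median of -0.31 and sums of 1323 to 1437 CPM with the mixture, against 1716 to 1897 CPM in controls. Insm1, a transcription factor of dividing neuronal progenitors, had 128, 130 and 114 CPM with the mixture and 204, 238 and 225 CPM in controls (log2 change -0.84, SE 0.102, adjusted p = 0.000141). Top2a, a topoisomerase of dividing cells, and Kit, the stem cell factor receptor, fell by log2 changes of -0.98 and -1.26. With libraries scaled to the median receptor gene, Neurog1, Sox11 and Pax6, which had fallen, and Krt14, which had risen, lost their calls. The summed levels of these 3 marker lists did not overlap between groups, and their part in the other results was not tested.

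Axon sorting genes that passed the test all rose. Of 24 tested, 13 rose and 0 fell, with a median log2 change of 0.36. Among these, Pcdh10, Kirrel2, Cntn4 and Sema7a were also counted with the activity-dependent genes that rose. Plxna1, a receptor for semaphorins, had 69.0, 86.8 and 67.7 CPM with the mixture and 37.4, 29.7 and 35.1 CPM in controls (log2 change 1.13, SE 0.127, adjusted p = 8.89e-05). Tenm4, a teneurin adhesion protein, had 40.3, 36.0 and 35.1 CPM with the mixture and 18.9, 13 and 16.2 CPM in controls (log2 change 1.21, SE 0.147, adjusted p = 0.000143). Both genes kept their groups apart. Pcdh10, a protocadherin, rose by a log2 change of 2.37 (SE 0.400, adjusted p = 0.0012). Of 18 genes of receptor choice and trafficking, 6 rose and 5 fell (median 0.01). The shares over all tested genes were 10.9% higher and 10.4% lower. Reep1, an accessory protein of receptor transport, had 45.9, 53.7 and 60.5 CPM with the mixture and 31.2, 26.7 and 28.1 CPM in controls (log2 change 0.90, SE 0.132, adjusted p = 0.000487). Kdm1a, the histone demethylase LSD1 needed to start receptor expression, had 143, 143 and 141 CPM with the mixture and 259, 278 and 271 CPM in controls (log2 change -0.92, SE 0.097, adjusted p = 6.38e-05). Of these calls, 3 rose without the second control library, and 3 fell without the first control library or without the third mixture library.

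**Figure D4:**
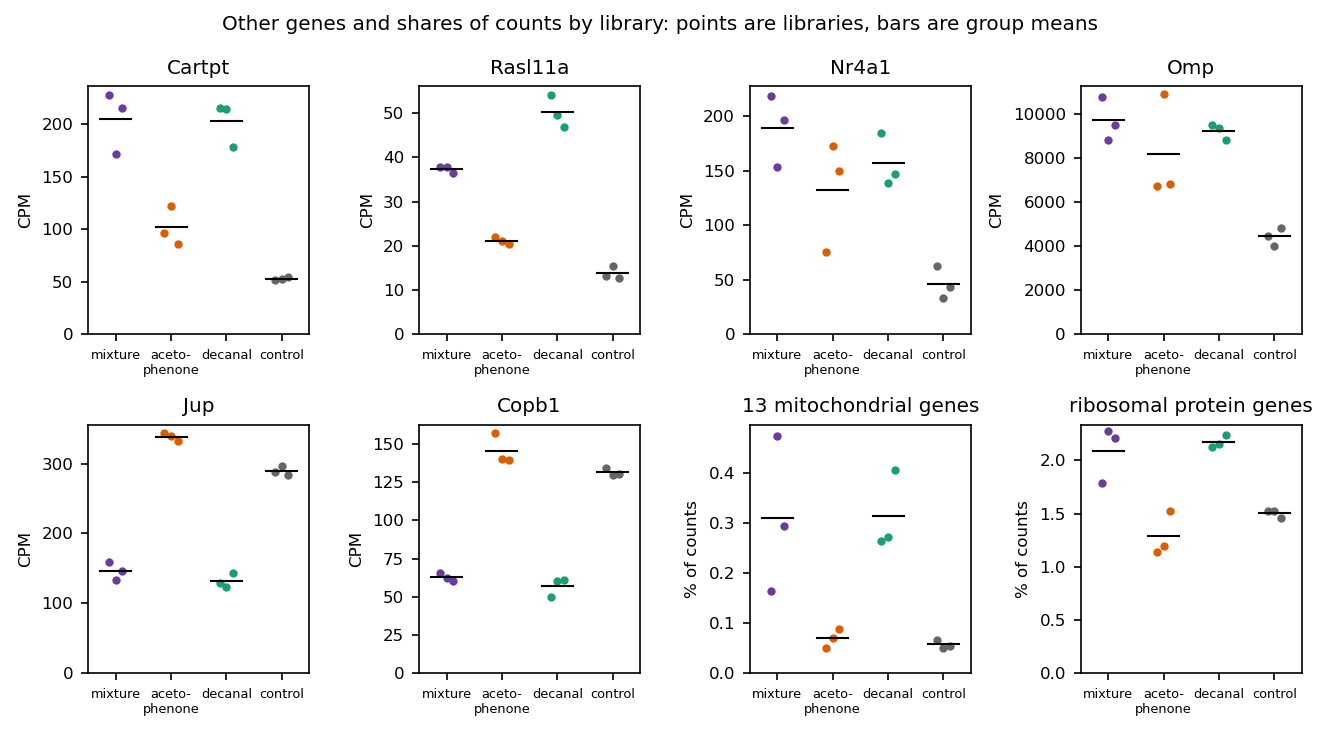
Panels show non-receptor genes in CPM and 2 shares of counts in percent for the mixture, acetophenone, decanal and control groups; points are the 3 libraries of a group and bars the group means. Cartpt lies at 172 to 228 CPM with the mixture and 51.3 to 55.0 CPM in controls, and the mitochondrial share is higher in every mixture library than in every control library.

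Genes of the ribosome and of oxidative phosphorylation rose. Of 82 cytosolic ribosomal protein genes, 73 rose and 0 fell, with a median log2 change of 0.63, and their summed level was 18838 to 22747 CPM with the mixture, against 14124 to 14622 CPM in controls. Rplp1, a protein of the ribosomal stalk, had 181, 183 and 188 CPM with the mixture and 96.0, 104 and 105 CPM in controls (log2 change 0.86, SE 0.118, adjusted p = 0.000321). Rps6, the protein the antibody recognises in its phosphorylated form, had 524, 577 and 625 CPM with the mixture and 398, 409 and 415 CPM in controls (log2 change 0.50, SE 0.101, adjusted p = 0.00364). All 13 genes of the mitochondrial genome tested rose, with a median log2 change of 2.61. Against acetophenone, all 13 were also higher with the mixture (median log2 change 2.61). So were 81 of the 82 ribosomal protein genes (median 0.81). Against decanal, 0 genes of either list were called (medians 0.01 and -0.06). The mean mitochondrial share was 0.311% with the mixture, 0.314% with decanal, 0.0697% with acetophenone and 0.0577% in controls. The cytochrome oxidase gene mt-Co3 had 264, 511 and 339 CPM with the mixture and 81.7, 64.8 and 70.7 CPM in controls (log2 change 2.36, SE 0.261, adjusted p = 8.15e-05). The 3 mixture libraries differed among themselves by more than the controls did, yet all were above every control. Of 80 nuclear genes of oxidative phosphorylation, 49 rose and 0 fell (median 0.45), and 26 rose without the first control library, 29 without the first mixture library and 19 when scaled to the median receptor gene. Over 5 bins of 15412 genes by transcript length, 19.9% of the shortest genes rose and 3.5% fell, while 5.72% rose and 19.5% fell in the middle bin, and 11.9% rose and 9.15% fell among the longest.

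Some genes of vesicle coats and cell junctions fell. Of 26 vesicle coat and transport genes, 11 fell, 3 rose and 12 did not pass, with a median log2 change of -0.21. The shares over all tested genes were 10.9% higher and 10.4% lower. Copb1 (ENSMUSG00000030754), a subunit of the COPI coat, had 65.7, 62.4 and 60.1 CPM with the mixture, 157, 140 and 140 CPM with acetophenone, 50.1, 60.3 and 60.9 CPM with decanal and 134, 130 and 130 CPM in controls. The mixture and decanal libraries were well below the others (log2 change of mixture over control -1.07, SE 0.0944, adjusted p = 1.45e-05). Of 20 junction and desmosome genes, 5 fell, 1 rose and 14 did not pass (median -0.45). Jup, plakoglobin, had 160, 133 and 147 CPM with the mixture and 288, 296 and 284 CPM in controls (log2 change -0.98, SE 0.0896, adjusted p = 1.82e-05), and Ctnna1, an alpha-catenin, and Ctnnb1, beta-catenin, fell by log2 changes of -0.85 and -0.71. Cse1l, a nuclear export factor for importin alpha, had 25.3, 24.7 and 22.6 CPM with the mixture and 63.8, 78.4 and 68.7 CPM in controls (log2 change -1.54, SE 0.153, adjusted p = 4.1e-05). Among the non-receptor genes that rose, Fam213b, which encodes a prostamide and prostaglandin synthase, had 998, 811 and 970 CPM with the mixture and 312, 323 and 364 CPM in controls (log2 change 1.48, SE 0.111, adjusted p = 2.95e-06). Med21, a subunit of the Mediator complex, had 134, 125 and 139 CPM with the mixture and 60.7, 56.0 and 56.6 CPM in controls (log2 change 1.20, SE 0.0961, adjusted p = 5.28e-06).

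Genes that metabolise odorants and xenobiotics mostly fell where they changed. Of 34 xenobiotic metabolism genes, 2 rose and 13 fell, with a median log2 change of -0.45, and 6 fell when libraries were scaled to the median receptor gene. Cyp2f2, an airway cytochrome P450, had 1132, 595 and 903 CPM with the mixture and 1510, 1756 and 1801 CPM in controls (log2 change -0.95, SE 0.180, adjusted p = 0.00247). The exceptions were Nqo1, a quinone reductase, and Sult1d1, a sulfotransferase. Nqo1 had 481, 228 and 490 CPM with the mixture, 421, 404 and 287 CPM with acetophenone, 349, 426 and 345 CPM with decanal and 84.8, 111 and 109 CPM in controls. All odor libraries were above all controls (log2 change of mixture over control 1.98, SE 0.242, adjusted p = 0.000152). Of 29 genes of aldehyde and odorant metabolism, 0 rose and 5 fell (median -0.39), beside 10.4% of all tested genes that fell, with 10 falling when the first mixture library was left out. Aldh3a2, the fatty aldehyde dehydrogenase that oxidises long-chain aldehydes, had 56.6, 60.2 and 56.3 CPM with the mixture and 97.7, 93.5 and 92.0 CPM in controls (log2 change -0.71, SE 0.0965, adjusted p = 0.000294). These enzymes are largely made by sustentacular cells, the supporting cells of the epithelium. The 12 sustentacular markers, 1 of which rose and 3 of which fell, summed to 2180 to 3232 CPM with the mixture and 3584 to 3754 CPM in controls. These sums did not overlap, and their part in the fall was not tested. The 3 that fell, Ugt2a1, Cyp1a2 and Ugt2a2, were also counted with the xenobiotic metabolism genes that fell.

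The remaining lists are given by their counts, to be read against the 10.9% of all tested genes that rose and the 10.4% that fell. Of 32 chaperones, 6 rose and 6 fell. Rises and falls numbered 3 and 5 among 19 oxidative stress genes, 7 and 1 among 28 genes of sensory cilia, 4 and 2 among 28 genes of motile cilia, 3 and 1 among 15 genes of MAPK feedback, 1 and 2 among 18 genes of the S6 phosphorylation pathway and 1 and 1 among 21 interferon-stimulated genes. For cells that the tissue could hold beside the epithelium, 2 of 17 red blood cell markers rose (median 0.96), 4 of 13 neutrophil markers rose, 2 of 10 fibroblast and fat markers rose and 1 of 11 endothelial markers rose, with 0 lower in each. Bone markers had 1 rise and 1 fall among 21. Macrophage markers had 1 fall among 10, muscle markers 1 among 5, ensheathing glia markers 2 among 12 and Bowman gland genes 2 among 21, with 0 higher in each. Microvillar cell markers and non-canonical sensory neuron markers had 9 tested each and 0 called. Neutrophil markers summed to 254 to 460 CPM with the mixture and 301 to 349 CPM in controls, which overlap. Of 11 genes that odors raised in the other experiments of the series, 9 rose and 0 fell (median 1.38). That list was chosen from results of the same study and is not independent of it. It also shares Omp, Gng13 and Nptx2 with lists given above. Leaving out a library moved several of these counts by over 1.5 times. Chaperones that rose numbered 2 without the first control library and 3 without the second control or the first mixture library, and 3 fell without the third control or the second mixture library. Oxidative stress genes that fell numbered 3 without the first or the second control library and 2 without the second mixture library. Genes of sensory cilia that rose numbered 4 without the first control library, those of motile cilia 2 without the second control, the third control or the first mixture library, and neutrophil markers 2 without the third mixture library. Red blood cell markers had 0 rises without the first control, the second control, the second mixture or the third mixture library, and bone markers had 4 without the third mixture library. MAPK feedback genes that rose numbered 1 without the first control library, and counts of 1 or 2 for S6 pathway, sustentacular, macrophage, endothelial, fibroblast, muscle and interferon genes also changed by 1 without at least 1 library. Where a list had a count of 0 in a direction by edgeR, 0 members in that direction had an unadjusted p under 0.05 and DESeq2 called 0, with these exceptions. An unadjusted p under 0.05 was seen for 1 lower gene of response termination, 1 lower ribosomal protein gene, 1 higher microvillar gene and 1 higher Bowman gland gene, and DESeq2 called 1 gene each for ribosomal proteins and Bowman glands.

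**Figure D5:**
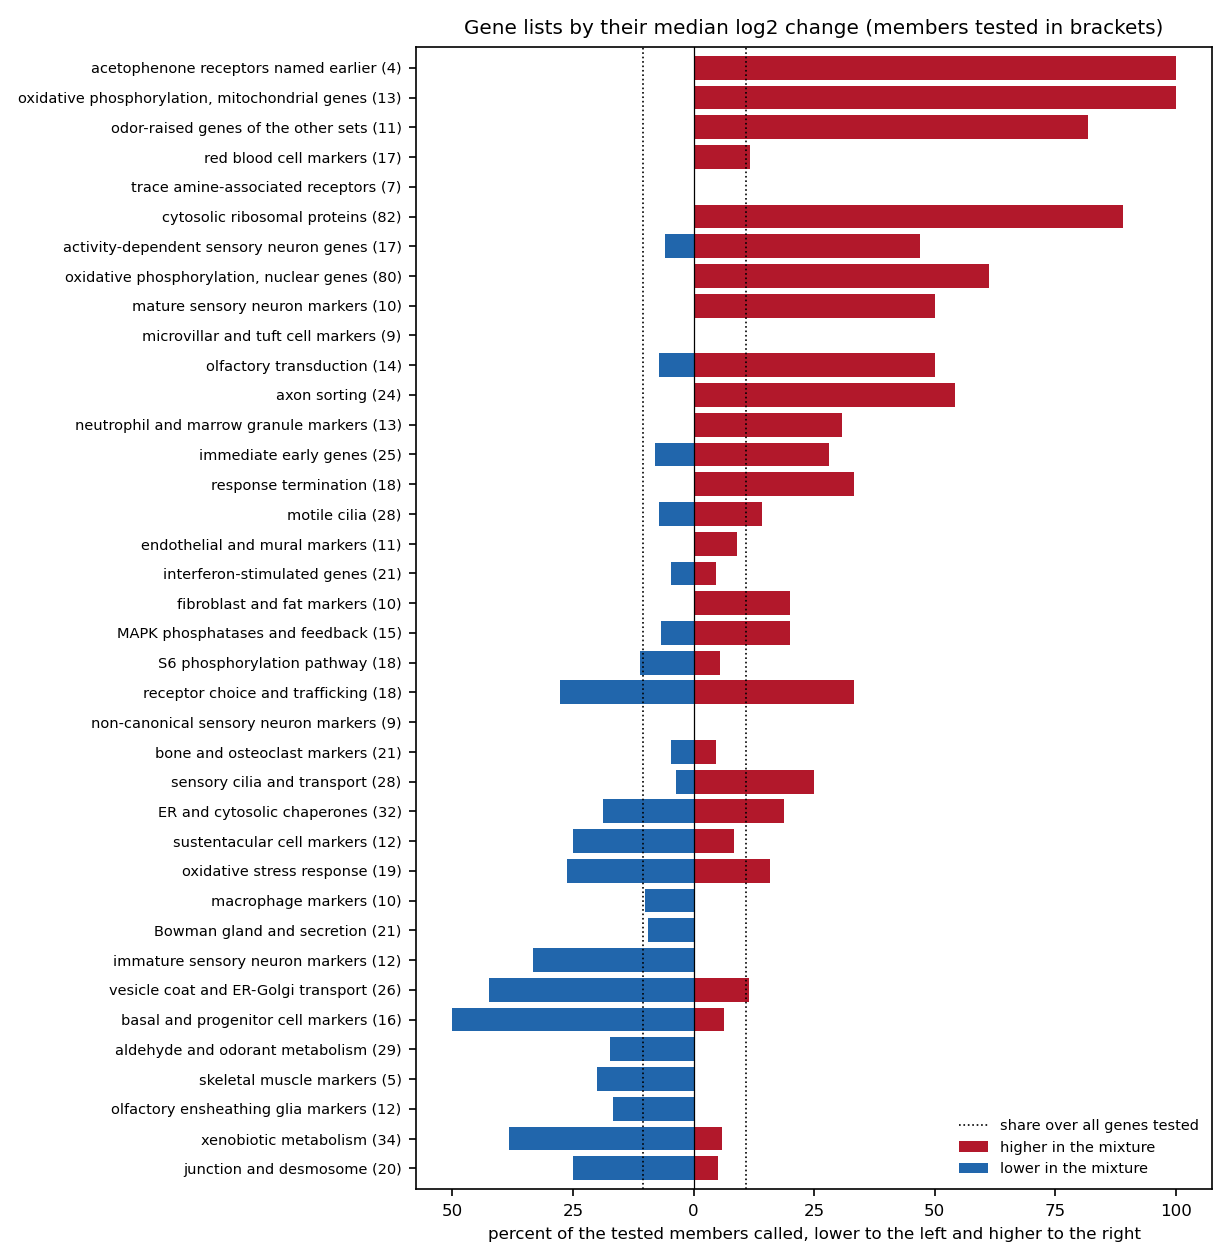
Bars show, for each gene list, the percent of its tested members called higher (to the right) and lower (to the left) with the mixture against controls, with lists ordered by their median log2 change and the number tested in brackets; dotted lines mark the shares over all genes, 10.9% higher and 10.4% lower. Mitochondrial genes (13 of 13 higher) stand near the top, and xenobiotic metabolism (13 of 34 lower) near the bottom.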

How the data were processed

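RNA was measured in libraries of pS6-bound ribosomes from mouse olfactory epithelium: a homogenate was incubated with an anti-phospho-S6 antibody on beads, and the eluted RNA went into stranded mRNA libraries, per the labels' protocols. The authors deposited expected counts per gene, 12.0% to 12.6% of them fractional per mixture or control library, which were rounded to whole numbers here. The submitters' processing notes name GRCm39 as the build, with Salmon 1.10.1, STAR 2.7.10b and R 4.4.2 as tools whose roles are not stated, and the gene annotation is not given in the sources used here. Expected counts divide reads that fit several genes between them. Of 57010 identifiers, 52081 were named from GENCODE vM21 (GRCm38), used for names, lengths and gene order only, while 4929 had no name there and took 0.331% to 0.428% of a mixture or control library.

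The 12 libraries of the acetophenone and decanal experiment were fitted together as 4 groups with edgeR 4.0.16 in R 4.3.3 (filterByExpr, minimum count 10 and minimum total 15, TMM scaling, quasi-likelihood test, prior count 0.125, 2-sided), with Benjamini-Hochberg adjustment over the genes tested and calls at 0.05. SE were derived from the log2 change and its F statistic. CPM use TMM-scaled library sizes. Shares of counts were compared by an exact permutation test. Near-identical receptor sequence was a stretch of at least 200 bases with at least 95% identity (blastn 2.17.0). It could lie anywhere in the annotated transcripts, so genes that share it need not match over their whole length. Class I was taken as MOR families up to 42. The method was tested on simulated data. No pair of libraries within a group agreed within sampling noise. Same-numbered mixture and control libraries did not deviate together, so the numbers were not used as pairs.

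The rule for naming genes took those with the smallest p whose mixture and control libraries did not overlap: 24 receptors that rose, 12 that fell, 5 by level and 5 by change, 10 other genes each way, up to 8 called members of each list each way, the acetophenone receptors, and 6 receptors each way against each component, which could overlap the controls. Beside the rule, Fos, Egr1, S100a5 and Scg2, and the genes that the report marks so, were named after their values were seen. Some items the rule covers are not reported here. The members, lists and this rule were chosen with earlier results of these data known. Alternatives were RLE scaling, scaling to the median receptor gene, no filter, a replicate block, a fit of 6 libraries, DESeq2 1.42.0 and leaving out each library.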

Additional observations from a re-analysis of the deposited data

How the results depend on the processing

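Calls over all genes went from 4168 to 1896 when libraries were scaled to the median receptor gene (1195 higher, 701 lower), which moved the median log2 change by 0.06, and to between 2695 and 3452 when a library was left out (1332 to 1662 higher, 1363 to 1790 lower); the cause was not tested. Receptor calls ranged from 137 to 166 without a library (98 to 110 higher, 38 to 58 lower), against 171. Against acetophenone, receptors lower with the mixture were 57 with receptor scaling and 70 to 94 without a library, against 108, and all receptor calls were 111 to 145 (41 to 51 higher). Against decanal, receptor calls were 89 without the filter and 85 with DESeq2, against 53, and 36 to 52 without a library (32 to 46 higher); lower ones were 19 without the filter, 12 with 6 libraries, 20 with DESeq2 and 4 to 7 without a library, against 6. The receptor share differed by 0.0431 percentage points without the 5 receptors of highest CPM and by 0.0681 to 0.1002 without a library, against 0.0815. Olfr93, not called against controls at -0.06, reversed to 0.0215 with receptor scaling and ran from -0.236 to 0.0905 without a library.

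Of 248 genes that the naming rule covers, 66 lost their call with receptor scaling, 15 under the replicate block and 22 to 37 without a library. Under the replicate block, 107 of the 115 receptors that rose and 49 of the 56 that fell kept their call; same-numbered libraries correlated at -0.093, -0.022 and 0.112. At these depths, control counts of 1 to 3 limit the size that can be given for the largest receptor changes.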
